A study of Mus musculus with 6 samples.

Results

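A set of 10 immediate early genes was followed in macrophages of mice lacking progranulin (PGRN), a secreted glycoprotein encoded by Grn. They were the 3 EGR genes Egr1, Egr2 and Egr3, the 3 NR4A genes Nr4a1, Nr4a2 and Nr4a3, and Ier2, Ier3, Klf6 and Srf. They were taken from the table by gene symbol, and the set was chosen with earlier results of these data known. All 10 were found among the 54532 genes of the table. According to the labels, peritoneal macrophages of strain C57BL/6J, either wild type (WT) or progranulin knock out (PGRN KO), were plated at 2000000 cells per well and exposed to Candida albicans at 1 fungal cell per macrophage. RNA was taken after 6 hours from 3 WT cultures (replicates 1, 2 and 3) and 3 PGRN KO cultures (replicates 4, 5 and 6). The study's text describes bone marrow-derived macrophages in place of peritoneal cells, and gives another ratio of fungus to macrophages for this stimulation, so neither the cell source nor the dose is certain. They also state that PGRN KO mice and WT mice came from separate suppliers, so the groups are not described as littermates, although sex and age are said to have been matched. The ages of these mice are not stated in the labels. Every culture received the fungus and a single time was sampled, so the values are levels after 6 hours and not inductions.

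Immediate early genes are transcribed soon after a cell meets a stimulus, without the need for new protein, and many of their products are transcription factors. Extracellular signal-regulated kinase (ERK) activates ternary complex factors such as Elk1, which sit with serum response factor (SRF) on CArG boxes in front of genes such as the EGR genes. Cyclic AMP and stress kinases act through CREB and its relative ATF1 on cyclic AMP response elements, whose core is TGACG, as in the NR4A genes. EGR proteins are zinc finger factors held back by the corepressors Nab1 and Nab2, and NR4A proteins are orphan nuclear receptors that limit inflammatory gene expression in macrophages.

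Promoter windows were found for 7 of the 10 genes in the RefSeq promoter table (GRCm38.p6), and the 250 bases before each start site were searched on both strands. Egr1, Egr3 and Ier2 had no window there and were not searched. A CArG box was present in windows of 2 of these genes, Egr2 and Srf, against 1.47% of all 32851 windows in the table. The core TGACG was present in 5 of them, the 3 NR4A genes, Egr2 and Srf, against 17.8% of all windows. The EGR motif GCGNGGGCG was present in Nr4a1, Nr4a2 and Srf, against 4.7% of all windows. These counts are of genes and the shares are of windows. The 7 genes had 11 windows, 5 of them of Egr2, so the 2 measures are not directly comparable. Stretches holding the first 2 motifs are shown for each of these genes because they carry the elements by which these genes are known to respond. Capitals mark CArG boxes and the TGACG core, read on either strand (CGTCA on the other), and these 2 motifs did not overlap each other.
Nr4a1, chr15:101266603-101266820, plus strand: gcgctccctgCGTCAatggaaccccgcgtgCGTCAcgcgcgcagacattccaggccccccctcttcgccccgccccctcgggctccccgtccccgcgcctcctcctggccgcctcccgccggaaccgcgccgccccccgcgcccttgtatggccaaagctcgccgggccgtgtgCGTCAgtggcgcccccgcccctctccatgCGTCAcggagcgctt
Nr4a2, chr2:57124100-57124213, minus strand: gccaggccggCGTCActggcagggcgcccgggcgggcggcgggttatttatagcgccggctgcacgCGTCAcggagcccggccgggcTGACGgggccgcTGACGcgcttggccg
Nr4a3, chr4:48045064-48045114, plus strand: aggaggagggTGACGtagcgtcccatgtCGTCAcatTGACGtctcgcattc
Egr2, chr10:67537748-67537828, plus strand: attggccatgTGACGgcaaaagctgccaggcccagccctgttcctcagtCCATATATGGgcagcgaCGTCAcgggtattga
Srf, chr17:46556205-46556373, minus strand: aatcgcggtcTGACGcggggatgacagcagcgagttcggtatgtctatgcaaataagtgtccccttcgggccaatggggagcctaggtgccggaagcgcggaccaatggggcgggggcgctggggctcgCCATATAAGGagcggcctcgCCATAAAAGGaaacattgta
The Nr4a1 and Nr4a2 stretches each held 4 TGACG cores and no CArG box. The Nr4a3 window held 4 cores as well, of which 3 are shown. The Srf stretch held a pair of CArG boxes, starting 82 and 62 bases before the start site. Egr2 had 5 windows from alternative start sites, and 4 of them held a CArG box. Some of these windows overlap and share the box printed above, so they are not separate boxes. Another Egr2 stretch with a different CArG box, chr10:67537484-67537513, is not shown. The Nr4a1 and Egr2 stretches lie within the gene models, before alternative start sites, and no printed stretch overlaps an annotated exon of its own gene. Exons of other genes were not checked. These matches describe sequence and were not measured as bound sites.

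Values were deposited as FPKM, fragments scaled to gene length and library size, which allows levels to be compared between genes. Multiplying FPKM by gene length gave whole fragments, 15996786 to 17551619 per library. Grn was at 323, 337 and 325 FPKM in WT and at 0.0166, 0 and 0.0167 FPKM in PGRN KO, so the targeted gene followed the genotype labels. The macrophage markers Lyz2, Cd68 and Adgre1, 3 of 7 listed, were high in every library (Adgre1 162 to 195 FPKM). Fcgr1 and Mertk, also on that list, were low, at 4.24 to 9.95 and 1.14 to 3.84 FPKM. The large peritoneal macrophage markers Gata6 and Timd4, 2 of 5 listed, were at 3.78 to 5.07 and at most 0.204 FPKM. PGRN KO replicate 6 stood apart from the other libraries. Its deviation from the gene means followed gene length with a Spearman correlation across genes of -0.47, against 0.15 to 0.24 in the other 5, so that short genes read high in it.

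Of the 10 genes, 6 were significantly lower in PGRN KO macrophages and none was significantly higher. The fallen genes were Egr1, Egr2, Egr3, Nr4a2, Nr4a3 and Klf6, whereas Nr4a1, Ier3, Srf and Ier2 did not pass the threshold, a limma adjusted p of 0.05 over 8882 tested genes. Over all tested genes 24.2% were called, 13.8% lower and 10.4% higher. Fold changes are differences in mean log2(FPKM + 1), which understate the change of low genes. The median log2 fold change of the 10 genes was -0.56, against -0.03 for all tested genes. For 8 of the 10 genes every PGRN KO value lay below every WT value, a pattern met by 27.6% of all tested genes. Without PGRN KO replicate 6, 9 of the 10 genes were called lower, and so were 25.1% of all tested genes. On the TPM scale 5 of the 10 genes were called lower and none higher, against 6.85% of all tested genes lower, while higher genes made up 60.3% of all calls there against 42.8% as deposited. Leaving out WT replicates 1, 2 and 3 in turn gave 2, 3 and 4 genes called lower, against 4.30%, 4.99% and 5.47% of all tested genes. Leaving out PGRN KO replicate 4 or 5 gave 5 genes, against 8.78% and 9.71%. Exact permutation tests of single genes could not go below p = 0.1 with 3 against 3 libraries, and the 8 separated genes each had that value. The labels do not say whether libraries of a group came from different mice, so p-values measure the spread between these cultures.

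**Figure D1:**
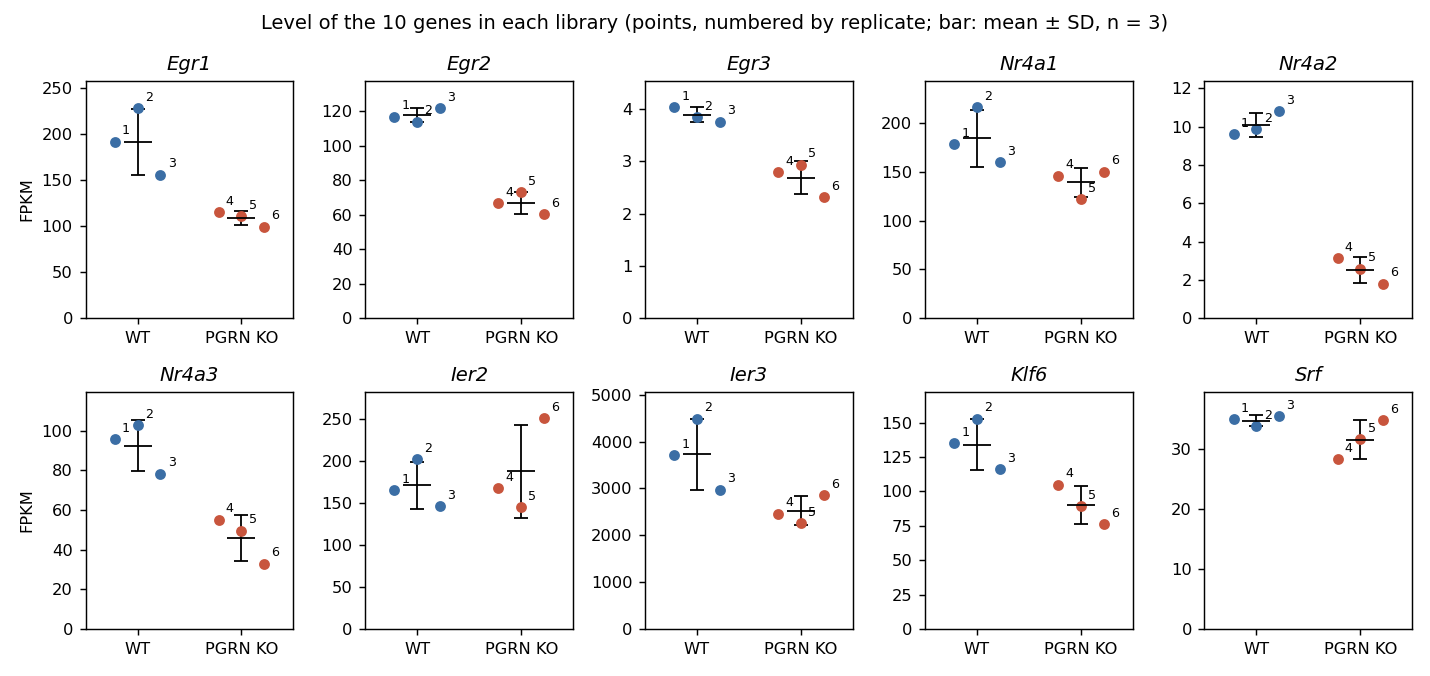
FPKM (linear axis from 0) of the 10 genes in each of the 6 libraries, with the replicate number beside each point and the mean ± SD of each genotype in black. The PGRN KO points lie below all WT points in 8 panels and overlap them for Ier2 and Srf, and Ier2 reaches 251 FPKM in PGRN KO replicate 6.

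The EGR factors were examined first. Gene coordinates are those of the deposited table (GRCm38), and Egr1 lies on chromosome 18. Egr1, the best known of them and a standard readout of ERK signalling, was at 192, 228 and 156 FPKM in WT replicates 1, 2 and 3 and at 115, 111 and 99.7 FPKM in replicates 4, 5 and 6 of PGRN KO. The groups did not overlap, and the WT cultures spread more widely (coefficient of variation 18.6%) than the PGRN KO cultures (7.45%). Expression fell by 0.80 ± 0.15 on the log2 scale (SE, n = 3 each; limma adjusted p 0.0117), and the PGRN KO mean was 56.6% of the WT mean. The adjusted p became 0.0584 without WT replicate 1.

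Egr2 (chr10:67535475-67542188, plus strand), which takes part in macrophage differentiation and alternative activation, fell to a similar extent. It was at 117, 114 and 122 FPKM in WT and at 66.6, 73.1 and 60.4 FPKM in PGRN KO. All WT cultures were close together and well above PGRN KO. This was a log2 change of -0.81 ± 0.10 (SE; limma adjusted p 0.00324), and the call was kept in all 18 alternatives.

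Egr3 (chr14:70077203-70082614, plus strand), a low-expressed relative, was at 4.04, 3.85 and 3.76 FPKM in WT and at 2.8, 2.94 and 2.32 FPKM in PGRN KO. These values rested on 251 to 299 fragments per WT library and 177 to 245 per PGRN KO library. The groups did not overlap, and Egr3 fell by 0.41 ± 0.10 on the log2 scale (SE; limma adjusted p 0.0266). The call was kept in 10 of the 17 alternatives that tested this gene. Leaving out WT replicate 1, 2 or 3 (limma adjusted p 0.118, 0.0937 and 0.0805) or PGRN KO replicate 4 (0.0573) ended it. It was also lost on a scale with equal library sums (TPM, 0.132), with summed fragments as library size (0.0887) and with no filter on low values (0.0646).

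The order Egr1, Egr2, Egr3 held in every library of both genotypes. Of the summed EGR FPKM, WT cultures held 60.9% ± 5.2 as Egr1 and PGRN KO cultures 61.1% ± 1.6 (SD, n = 3 each; exact two-sided permutation p = 0.9). The sum itself was 314 ± 31.9 FPKM against 178 ± 13.6 FPKM. Egr3 made up 1.25% ± 0.12 and 1.51% ± 0.071 (exact p = 0.1, the smallest possible), without overlap. The Egr1 and Egr2 shares overlapped between genotypes.

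The NR4A receptors differed from each other. Nr4a2 (chr2:57106830-57124003, minus strand), also known as Nurr1 and best known for its role in dopaminergic neurons, showed the largest change of the 10 genes. It was at 9.59, 9.88 and 10.8 FPKM in WT and at 3.14, 2.59 and 1.81 FPKM in PGRN KO, which corresponded to 593 to 790 and 127 to 221 fragments. The lowest WT value was 6.44 FPKM above the highest PGRN KO value. Its log2 fold change was -1.67 ± 0.15 (SE; limma adjusted p 0.00142), the mean in PGRN KO was 24.9% of that in WT, and the call was kept in all 18 alternatives.

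Nr4a3 (chr4:48045153-48086447, plus strand), or Nor1, was at 95.9, 103 and 78.4 FPKM in WT and at 55.2, 49.6 and 33 FPKM in PGRN KO. The lowest value came from PGRN KO replicate 6. Long transcripts read low in that library, and the Nr4a3 gene model is the longest of the 10 at 5987 bases. After correction for gene length and GC content the PGRN KO values were 53.9, 48.7 and 36.3 FPKM, with replicate 6 still the lowest. The cause of its low value was not tested. Nr4a3 fell by 1.02 ± 0.20 on the log2 scale (SE; limma adjusted p 0.0146). Without that library the log2 fold change was -0.80 and still past the threshold, whereas the adjusted p was 0.0641 and 0.0657 without WT replicates 1 and 2 and 0.0501 without a filter on low values.

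Nr4a1 (chr15:101254269-101274795, plus strand), or Nur77, the receptor most studied in macrophages, was at 178, 216 and 160 FPKM in WT and at 146, 122 and 150 FPKM in PGRN KO. The groups did not overlap, but the gap between them, 9.93 FPKM, was small beside the spread within WT. A log2 fold change of -0.40 ± 0.14 (SE; 95% interval -0.74 to -0.06; limma adjusted p 0.0853) did not pass. It passed in 3 of 18 alternatives and not in the other 15. The 3 were the fits without PGRN KO replicate 6 (limma adjusted p 0.0452), after correction for gene length and GC content (0.0359) and with sample quality weights (0.0178). With the first 2 of these changes combined it did not pass (limma adjusted p 0.0509).

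The make-up of the NR4A family was compared within libraries, which does not depend on scaling between them. Nr4a1 made up 62.7%, 65.7% and 64.2% of the summed NR4A FPKM in WT and 71.4%, 70% and 81.1% in PGRN KO. Nr4a2 took a share of 3.57% ± 0.69 in WT against 1.34% ± 0.31 in PGRN KO, and Nr4a3 one of 32.2% ± 1.4 against 24.5% ± 5.7 (SD). The groups did not overlap for any of the 3 shares (exact two-sided permutation p = 0.1 each, the smallest possible, and 0.15 after Benjamini-Hochberg adjustment over the 6 shares of both families). After correction for gene length and GC content the share of Nr4a1 was 65.0% ± 1.5 and 73.7% ± 4.0, again without overlap.

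**Figure D2:**
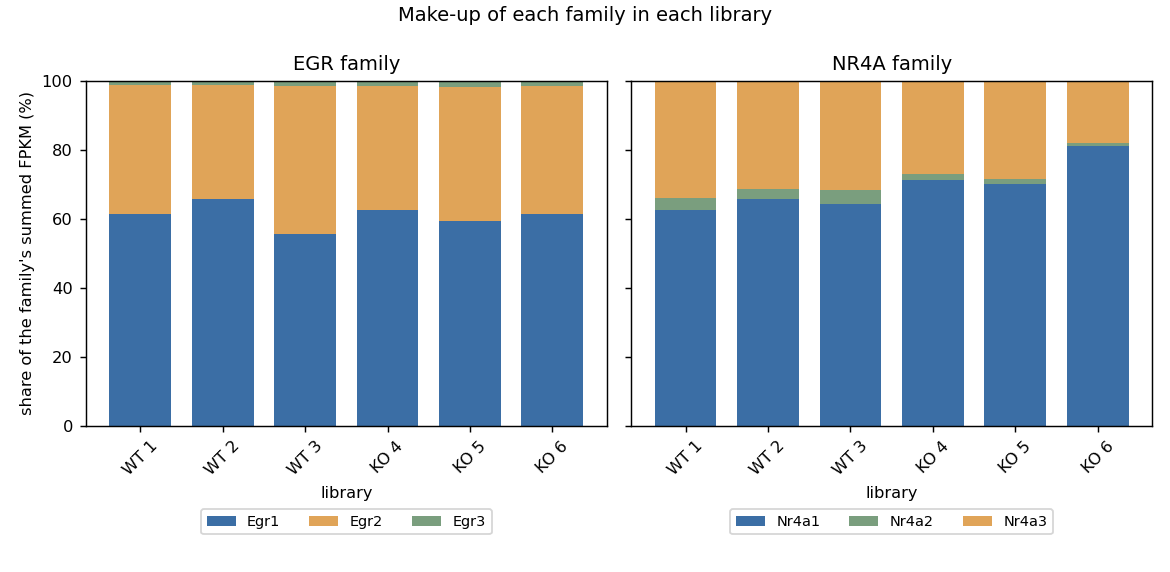
Share of each gene in the summed FPKM of its family (percent, stacked to 100) for each library, with the EGR family on the left and the NR4A family on the right. The Egr1 share overlaps between genotypes, whereas the Nr4a1 share is 62.7% to 65.7% in WT and 70% to 81.1% in PGRN KO.

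Among the remaining genes, Klf6 (chr13:5861482-5870394, plus strand), a zinc finger factor that supports inflammatory gene expression in macrophages, was the only one to pass the threshold. It was at 135, 153 and 116 FPKM in WT and at 105, 89.4 and 76.4 FPKM in PGRN KO. The groups were 11 FPKM apart. Klf6 fell by 0.57 ± 0.15 on the log2 scale (SE; limma adjusted p 0.0359). The call was kept in 10 of 18 alternatives. Leaving out WT replicate 1, 2 or 3 (limma adjusted p 0.125, 0.130 and 0.0548) or PGRN KO replicate 5 (0.0783) ended it. With all libraries it was lost after quantile normalization (0.0665), on the TPM scale (0.0769), with no filter (0.0937) and with summed fragments as library size (0.0546).

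Ier3 (chr17:35821684-35822923, plus strand), a regulator of survival and stress signalling, was by far the most abundant of the 10 and stood at the 99.8th percentile of tested genes by mean FPKM. It was at 3716, 4492 and 2977 FPKM in WT and at 2464, 2253 and 2866 FPKM in PGRN KO. The lowest WT and the highest PGRN KO culture, replicates 3 and 6, were 110 FPKM apart. With a log2 fold change of -0.55 ± 0.18 (SE; 95% interval -0.98 to -0.11; limma adjusted p 0.0704), Ier3 did not pass. Its gene model is the shortest at 1131 bases. It passed in 8 of 18 alternatives, among them the fit without PGRN KO replicate 6 (limma adjusted p 0.0272), the correction for length and GC content (0.0118), the TPM scale (0.0167) and quantile normalization (0.00301), and was lower in all 18.

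Ier2 (chr8:84661331-84662852, minus strand), a nuclear protein of the early response, was at 165, 202 and 146 FPKM in WT and at 168, 145 and 251 FPKM in PGRN KO. The groups overlapped throughout, and the highest value came from PGRN KO replicate 6. The log2 fold change was 0.11 ± 0.22 (SE; 95% interval -0.41 to 0.63, limma adjusted p 0.742), and it became -0.12 without that library and -0.06 after correction for length and GC content.

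Srf (chr17:46548329-46556175, minus strand), the factor that binds CArG boxes, changed little. It was at 35.1, 33.9 and 35.5 FPKM in WT and at 28.4, 31.7 and 34.9 FPKM in PGRN KO. Only replicate 6 of PGRN KO reached the WT range. The log2 fold change was -0.14 ± 0.10 (SE; 95% interval -0.37 to 0.10, limma adjusted p 0.339), and without PGRN KO replicate 6 it was -0.21 with a limma adjusted p of 0.0405. The Srf gene lies within the model of Gm26904 on the opposite strand, which was at a mean of 0.0106 FPKM, and contains the model of Mir6976. No other gene overlapped the remaining 9, and at most 0.523% of the 31-base words of any of the 10 occurred in transcripts of other genes.

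**Figure D3:**
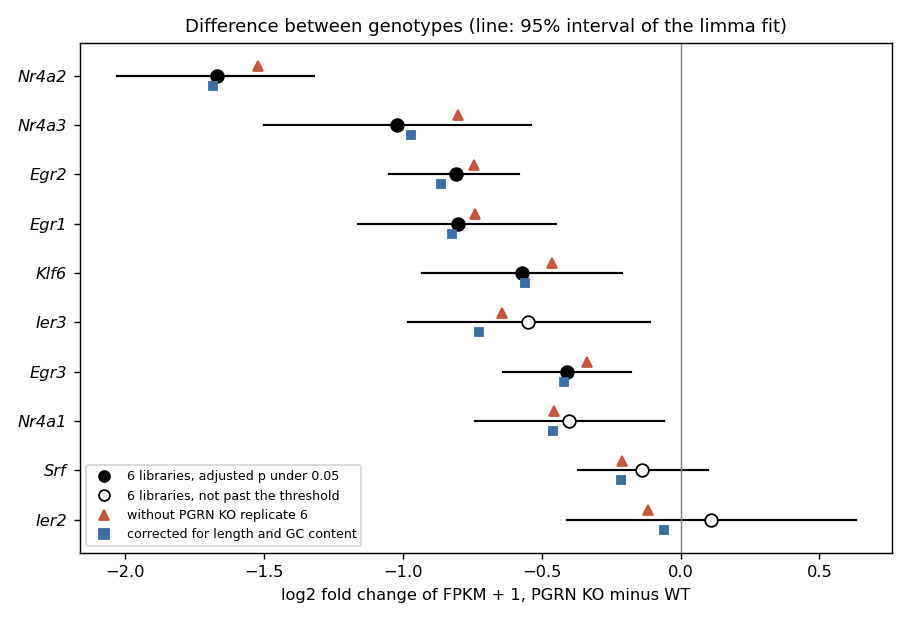
Log2 fold change (PGRN KO minus WT, on FPKM + 1) of each gene with the 95% interval of the limma fit, filled where past the threshold, and the values without PGRN KO replicate 6 and after correction for length and GC content. Only Ier2 changes sign between these 3 fits; Nr4a2 lies farthest from 0, at -1.67.

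The levels ranked differently in the 2 genotypes. In WT the mean fell from Ier3 (3728 FPKM) through Egr1, Nr4a1 and Ier2 (192, 184 and 171 FPKM) to Klf6, Egr2 and Nr4a3 (134, 118 and 92.5 FPKM), Srf (34.8 FPKM), Nr4a2 (10.1 FPKM) and Egr3 (3.89 FPKM). The WT ranges of Egr1, Nr4a1 and Ier2 overlapped, as did those of the neighbours Ier2 and Klf6 and of Klf6 and Egr2. In PGRN KO Ier2 and Nr4a1, at 188 and 139 FPKM, stood above Egr1 at 109 FPKM, whose range overlapped that of Klf6, and Nr4a3 reached down into the range of Srf in replicate 6 alone, an overlap not present after correction for length and GC content. Nr4a2 fell to the level of Egr3, with means of 2.51 and 2.69 FPKM and overlapping ranges, although in WT every Nr4a2 value exceeded every Egr3 value. For 6 genes (Egr1, Nr4a1, Nr4a3, Ier2, Ier3 and Klf6) replicate 2 was the highest and replicate 3 the lowest WT culture, also on the TPM scale. Egr2, Nr4a2, Egr3 and Srf did not share this order. How many of all tested genes show the order was not counted, so it cannot be called particular to these genes.

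The other genes of the immediate early response were then counted from a list that did not include the 10. There were 63 such genes with values and 58 were tested, of which 36 were significantly lower and 3 significantly higher in PGRN KO, while 19 did not pass. The share called lower was 62.1%, against 13.8% of all tested genes, and the median log2 fold change was -0.56. Some of these genes had been seen to change in earlier results of these data, so the count is a description of the list. Measured in log2(FPKM + 1), which ranks genes of low level such as Arc lower than a ratio of means would, the decreases were led by Rgs2 and Rgs1, which damp G protein signalling, and Fosb, a subunit of the AP-1 factor. Fosb was at 7.68, 8.33 and 6.6 FPKM in WT and at 2.72, 2.52 and 2.47 FPKM in PGRN KO, a difference of -1.25 ± 0.10 in log2(FPKM + 1) (SE; limma adjusted p 0.00119). Rgs2 fell from 10 ± 1.92 to 3.13 ± 0.546 FPKM and Rgs1 from 115 ± 4.34 to 49.1 ± 3.86 FPKM (SD, n = 3 each). The genes that rose were Gadd45g, a stress sensor, Cited2, a regulator of p300 binding, and Ier5l. Cited2 rose from 42.7 ± 3.86 to 78.1 ± 8.79 FPKM, and Gadd45g from 5.49 ± 0.322 to 17.7 ± 9.03 FPKM, with 28.1 FPKM in PGRN KO replicate 6 against 13.1 and 11.9 FPKM in replicates 4 and 5. Myc, Jund and Irf1 had log2 fold changes of 0.14, 0.10 and 0.23 and did not pass the threshold.

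**Figure D4:**
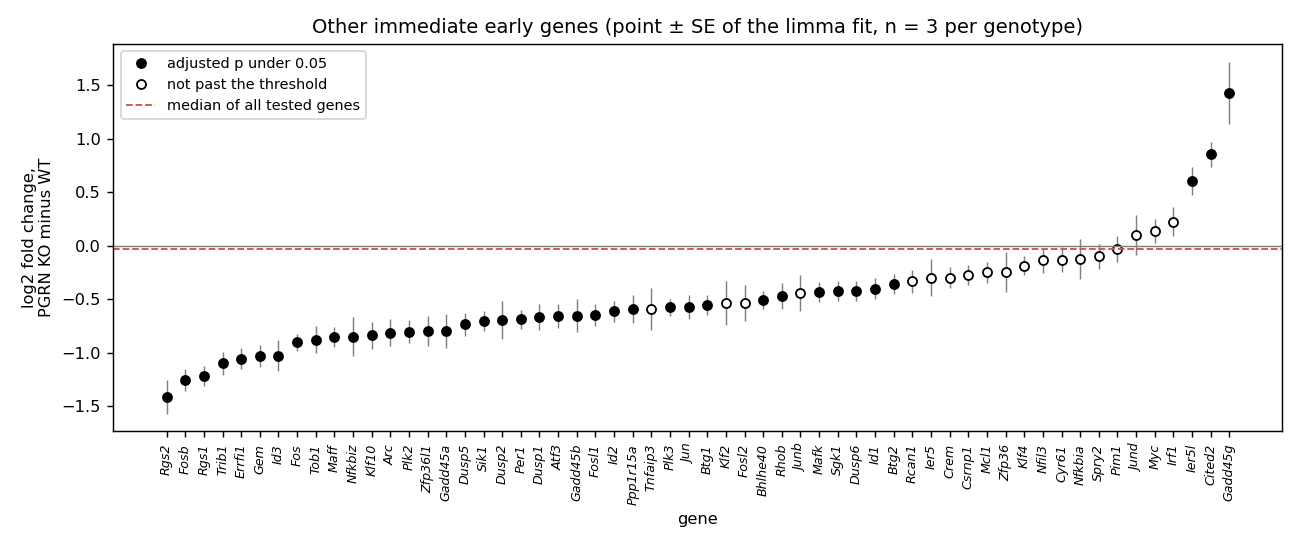
Log2 fold change (PGRN KO minus WT) with its SE for the 58 other immediate early genes that were tested, in order of size, filled where the adjusted p was under 0.05. Of these, 36 filled points lie below 0 and 3 above, and the dashed line marks the median of all tested genes at -0.03.

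Kinases and promoter factors upstream of these genes mostly did not pass. Of 21 tested, 4 were lower and none higher, against 13.8% and 10.4% of all tested genes: Rps6ka2, a kinase activated by ERK, Crtc2, a coactivator of CREB, Atf1, and Elk1. Elk1, the partner of SRF, was at 4 ± 0.161 FPKM in WT against 2.69 ± 0.434 FPKM in PGRN KO, with a limma adjusted p of 0.0307. Crtc2 was at 32.9 ± 1.8 against 21.8 ± 0.599 FPKM (SD). Creb1 had a log2 fold change of -0.07.

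Of 12 tested corepressors and partners of EGR and NR4A proteins, none was higher and 1 was lower, against 10.4% and 13.8% of all tested genes. The lower gene was Nab2. It was at 9.55, 9.84 and 9.27 FPKM in WT and at 6.09, 6.9 and 6.73 FPKM in PGRN KO, a log2 fold change of -0.48 ± 0.09 (SE, limma adjusted p 0.01). Nab2 is itself a target of EGR factors. Nab1 was lower by a similar log2 fold change, -0.45, with a limma adjusted p of 0.0528.

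Cytoskeletal genes known as targets of SRF with its actin-regulated cofactors had a median log2 fold change of 0.07 over 27 tested genes, 4 of them higher and 3 lower, shares near those of all tested genes (10.4% and 13.8%). Actn4 and Actn1, which cross-link actin, and Cnn3 were lower, whereas Fhl2, Cnn2, Dstn and Zyx were higher. Actn4 fell from 57.6 ± 2.04 to 31.9 ± 1.23 FPKM, and Dstn, an actin-severing factor, rose from 194 ± 5.02 to 298 ± 13.3 FPKM (SD, n = 3 each). Of 9 tested KLF genes other than Klf6, 2 were lower and none was higher, against 13.8% and 10.4% of all tested genes. They were Klf16 and Klf10, with log2 fold changes of -1.06 and -0.84, and the median of the 9 was -0.54. Klf2, Klf4 and Klf10 also stood on the list of other immediate early genes, so the 2 lists are not separate.

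Profiles most like those of 3 of the genes were sought among the 8881 other tested genes, by the root mean square difference of log2 deviations over the 6 libraries. Nearest to Egr1 were Gm14636, Ckap2l and Tob1, at 0.031, 0.047 and 0.064. Gm14636 and Ckap2l were low, with means of 2.77 and 5.45 FPKM in WT and 1.14 and 2.65 FPKM in PGRN KO. The 1 FPKM added before the logarithm shrinks differences at such levels, so this likeness partly depends on it. Nearest to Nr4a1 were Il1f6, which encodes interleukin-36 alpha, Glrx and Ccrl2, at 0.038, 0.054 and 0.059. Nearest to Srf were Vdac2, Sema6b and Ppp1r9b, at 0.020, 0.029 and 0.029. Distances are smaller for genes that vary little, as Srf does.

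Markers of other cells moved with genotype. Summed B cell markers ranged from 4.79 to 6.08 FPKM in WT against 19 to 24.1 FPKM in PGRN KO, with all 6 markers separated, and summed mast cell markers were 2.23 to 3.19 and 9.31 to 13.9 FPKM, with 4 of 6 separated. Summed neutrophil markers were 48.8 to 53.2 and 21.5 to 26.5 FPKM, nearly all from S100a8, while S100a9 was at most 0.443 FPKM and Ly6g and Elane were at 0 in every library. Summed T cell markers were 3.85 to 4.4 and 5 to 8.28 FPKM. Dendritic cell markers summed to 1.77 to 2.23 and 1.08 to 1.36 FPKM, and eosinophil markers to 0.0365 to 0.062 and 0.0176 to 0.0793 FPKM. Mesothelial and fibroblast markers summed to 0.585 to 0.71 FPKM in WT against 0.958 to 1.83 FPKM in PGRN KO, where 3 of 7 lay above every WT value. The 7 macrophage markers summed to between 7091 and 7423 FPKM in WT against 7235 to 9725 FPKM in PGRN KO, most of it Lyz2, which was highest in replicate 6 (8135 FPKM). Of these 7, Itgam (49.9 to 50.6 FPKM in WT, 41.3 to 45.1 in PGRN KO) and Csf1r (31 to 33.4, 23.6 to 25.3) lay below WT in every PGRN KO library. Mertk (1.14 to 1.56, 2.91 to 3.84) was among the 2 that lay above. The 5 large peritoneal macrophage markers summed to 7.46 to 8.29 FPKM in WT against 11.3 to 12.2 FPKM in PGRN KO. They did not move together. Icam2 and Lbp lay above every WT value in PGRN KO, Timd4 (at most 0.204 FPKM) lay below, and Gata6 and Cxcl13 overlapped. In bulk RNA fewer cells of a type and less RNA per cell cannot be told apart, and the part of other cell types in the differences above was not tested.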

How the data were processed

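RNA sequencing libraries of 3 WT and 3 PGRN KO cultures were used, with groups taken from the labels. The authors filtered reads, aligned them with HISAT, counted fragments per gene and deposited FPKM. The methods name HTSeq, whereas the submitters' processing notes name HISAT2 2.0.5, featureCounts 1.5.0-p3, DESeq2 1.20.0 and the build GRCm38. The sources used here do not state a strand setting for counting. All 10 genes had the coordinates of GENCODE M21 (GRCm38).

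Fragments were recovered as FPKM times gene length, whole within 0.001 of a step for 100% of values, so depth was known. They numbered 15996786 to 17551619 per library. Values were analysed as log2(FPKM + 1), which understates changes of low genes. The 8882 genes whose mean reached 1 FPKM were tested with limma 3.58.1 in R 4.3.3 (two-sided, empirical Bayes with a trend in the variance and no covariates, Benjamini-Hochberg adjustment, threshold 0.05). The fit was tested on simulated fragments with the same variability for all genes and no trend with gene length. That test therefore does not cover a library such as PGRN KO replicate 6. Single values were also compared with exact permutation tests. The libraries carried no stated molecular identifiers, so fragments are not counts of independent molecules.

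The 10 genes and the lists (other immediate early genes, upstream kinases and promoter factors, corepressors, cytoskeletal SRF targets, KLF genes, cell type markers) were chosen with earlier results of these data known. Named genes were all 10, Grn, up to 3 called genes per list and direction with the largest change, and the 3 genes nearest in profile to Egr1, Nr4a1 and Srf. Other listed genes (Elk1, Nab1, Zyx, Myc, Jund, Irf1 and Creb1), the family shares and the promoter motifs were chosen after values were seen. Alternatives were pseudocounts of 0.1 and 0.01, no filter, a mean FPKM of at least 5, a TPM scale, quantile normalization, summed fragments as library size, no variance trend, sample quality weights, voom on fragments, a loess correction (span 0.5) for gene length and GC content, and leaving out each library.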

Additional observations from a re-analysis of the deposited data

How the results depend on the processing

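No paired analysis was possible because replicates 1 to 3 are all WT and replicates 4 to 6 all PGRN KO. The correction for length and GC content without PGRN KO replicate 6 was chosen after seeing the data. The library size behind the deposited FPKM was 0.974, 0.925 and 1.028 times the summed fragments in WT replicates 1, 2 and 3. In PGRN KO replicates 4, 5 and 6 it was 1.048, 1.088 and 0.9995 times that sum. The setting with summed fragments replaced this size. Apart from fewer samples, another number of genes tested or another library size, causes of the shifts were not tested.

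As reported, all genes gave 921 higher and 1230 lower, of the 10 genes 0 higher and 6 lower, and of 124 tested listed genes 7 higher and 45 lower. With no filter 22912 genes were tested and adjusted together, of which 603 were higher (2.63%) and 763 lower (3.33%). Of the 10 genes 3 were lower, and 4 listed genes were higher. Standard errors moved in that fit as well, for Ier3 from 0.183 to 0.236. A mean FPKM of at least 5 gave 529 higher, from fewer genes tested. The TPM scale gave 608 lower and 11 listed genes higher, quantile normalization 11 listed genes higher, and summed fragments as library size 695 lower and 12 listed genes higher. Higher genes made up 42.8% of the calls as deposited, 60.3% on the TPM scale and 62.9% with summed fragments. Sample quality weights, which gave PGRN KO replicate 6 a weight of 0.09, gave 1757 higher, 2468 lower and 18 listed genes higher. The added correction without replicate 6 gave 1379 higher, 2392 lower, and 16 and 67 listed genes higher and lower.

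Leaving out 1 library gave 331 to 1438 genes higher and 382 to 2230 lower. Of the 10 genes 0 were higher and 2 to 9 lower. Of the listed genes 3 to 17 were higher and 22 to 66 lower. For 8 or 9 of the 10 genes the groups did not overlap. That pattern is easier to meet with fewer libraries, and its share over all tested genes was not counted for these fits.

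Of the 10 genes, 9 kept a negative sign in every alternative that tested them. Ier2 turned negative with sample quality weights (-0.066), with the correction for length and GC content (-0.061), without PGRN KO replicate 6 (-0.117) and with both of the last 2 (-0.152), without passing the threshold, and ranged from -0.117 to 0.274 when 1 library was left out. Depth limits Egr3 and Nr4a2 most, since a PGRN KO library held as few as 177 and 127 fragments of them.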
